A study of Mus musculus with 2 samples.

Results

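The 38 genes described here make up the neuronal cytoskeleton, the machinery of synaptic vesicle release, the synthesis and loading of transmitters, and a few further products that mark nerve cells. They were found as the rows of the gene tables whose symbol equals 1 of the 38 names, and all 38 had a row, among 55536 annotated genes of which 22028 are protein-coding. The RNA came from facial prominences, the swellings from which the face forms, taken from B6NCrl mouse embryos aged 12.5 days. Replicate 1 pooled 120 embryos and replicate 2 pooled 88, both of mixed sex, and each polyA plus RNA-seq library was made from 10 ng of RNA with oligo-dT priming, ERCC spike-in RNAs and Nextera tagmentation. No treatment or second tissue is labelled, so both libraries belong to 1 group, and the values set side by side below are those of replicate 1 and of replicate 2.

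Neurons fill their axons with microtubules and with neurofilaments, which are intermediate filaments built from several related subunits. At the axon's end, vesicles loaded with transmitter fuse with the membrane through the SNARE proteins when calcium enters. In the embryonic face, nerve cells and their processes come from the cranial sensory ganglia, from the olfactory epithelium and from autonomic precursors, next to a much larger mass of mesenchyme and epithelium.

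Expected counts, the estimated number of reads per feature, summed to 28705073 in replicate 1 and 41092194 in replicate 2, of which the spike-ins took 2.85% and 3.10%. TPM is a length-corrected share of all transcripts and is the scale on which genes are compared with each other. A gene was called detected where its TPM reached 1 in each replicate. Of the surrounding tissue, all 8 mesenchyme genes looked at were detected, at mean TPM between 64.4 for Twist1 and 933 for Col3a1. All 8 epithelial genes were detected too, between 12.5 for Esrp1 and 89.9 for Krt14.

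Of the 38 neuronal genes, 35 were detected, against 60.7% of all protein-coding genes. The 3 others, Nefh, Slc17a7 and Gad1, each had reads in both libraries. Mean TPM ran over a wide range, from 0.595 for Slc17a7 to 127 for Uchl1, with a median of 7.26. The detected members had a median of 8.06 TPM, below the median of 21.5 TPM over all detected protein-coding genes. Together the 38 genes made up 1111 TPM in replicate 1 and 886 TPM in replicate 2, or 0.111% and 0.0886% of all transcripts. The high end held genes of several roles: 9 members had a mean TPM of at least 50, namely Uchl1, Nefl, Gap43, Nefm, Rtn1, Stmn2, Vamp2, Stmn3 and Elavl4. The transmitter, channel and synaptic genes mostly lay under 10 TPM.

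**Figure D1:**
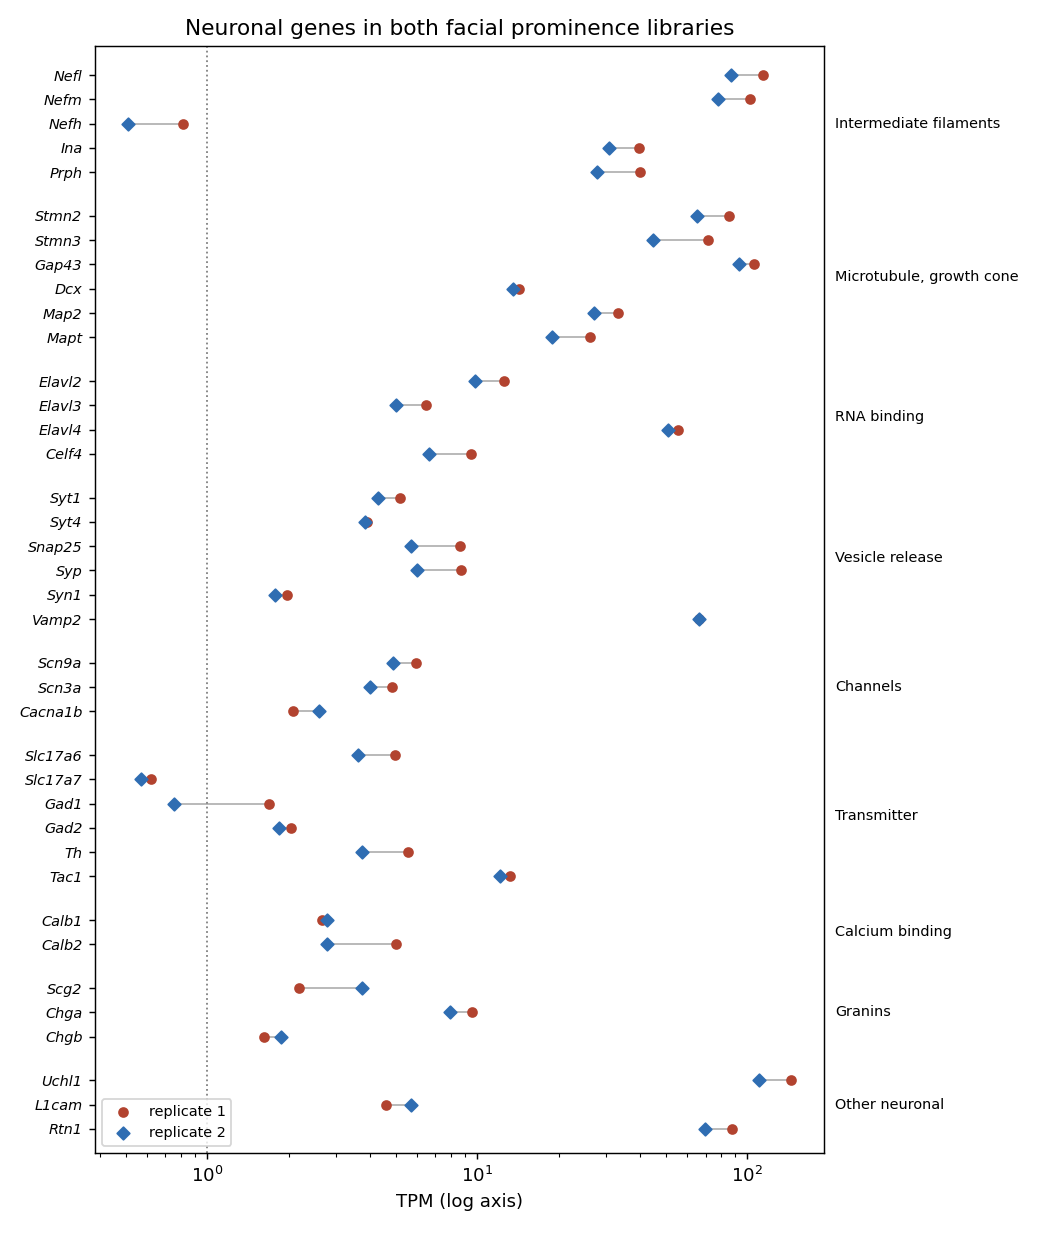
TPM of each of the 38 genes (log axis) in replicate 1 (red circles) and replicate 2 (blue diamonds), grouped by role. The dotted line marks the detection minimum of 1 TPM. Filament and microtubule genes sit mostly above 10 TPM, channels and granins below it, and most red circles lie to the right of their blue diamonds.

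With the genes ordered by mean TPM, 29 of the 37 neighbouring pairs had ranges over the 2 libraries that overlapped. Of these 29, 13 pairs stood in the same order within each library, and 16 changed order between the libraries. The 8 steps without overlap were Elavl4 over Ina, Map2 over Mapt, Mapt over Dcx, Dcx over Tac1, Elavl2 over Chga, Syt4 over Scg2, Calb1 over Cacna1b, and Cacna1b over Gad2. The genes are spread over the genome, with 8 on chromosome 2 and 4 on the X chromosome. Only Nefl and Nefm have overlapping exons among the members.

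Most of the 38 genes had a higher level in replicate 1 than in replicate 2. The ratio used is log2 of (TPM + 1) in replicate 1 over (TPM + 1) in replicate 2. Its median was 0.27 over the 38 genes and -0.00 over the 13382 detected protein-coding genes. It was above 0 for 32 of the 38, and for 29 of the 35 detected ones, where 49.5% of all detected genes were above 0. Of the 35 detected genes, 18 had a log2 ratio of 0.25 or more, against 6.34% of all, and 2 had one of -0.25 or less, against 5.4% of all. These are 1 library against 1 library, so no p-value is given.

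Read numbers of the same libraries, which are not independent of TPM, leaned the same way. For each gene an exact 95% interval was set on the ratio of its expected counts, after scaling to the total over genes. This interval covers counting error only: the reads were amplified and carry no molecular identifier, so they are not counts of separate molecules. It lay above 1 for 24 of the 35 detected members, against 15.4% of all detected genes, and below 1 for 2 members, Calb1 and Scg2, against 14.6%. With the 3 undetected genes it lay above 1 for 26 of 38. In bulk tissue, fewer cells of a type and less RNA per cell cannot be told apart.

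**Figure D2:**
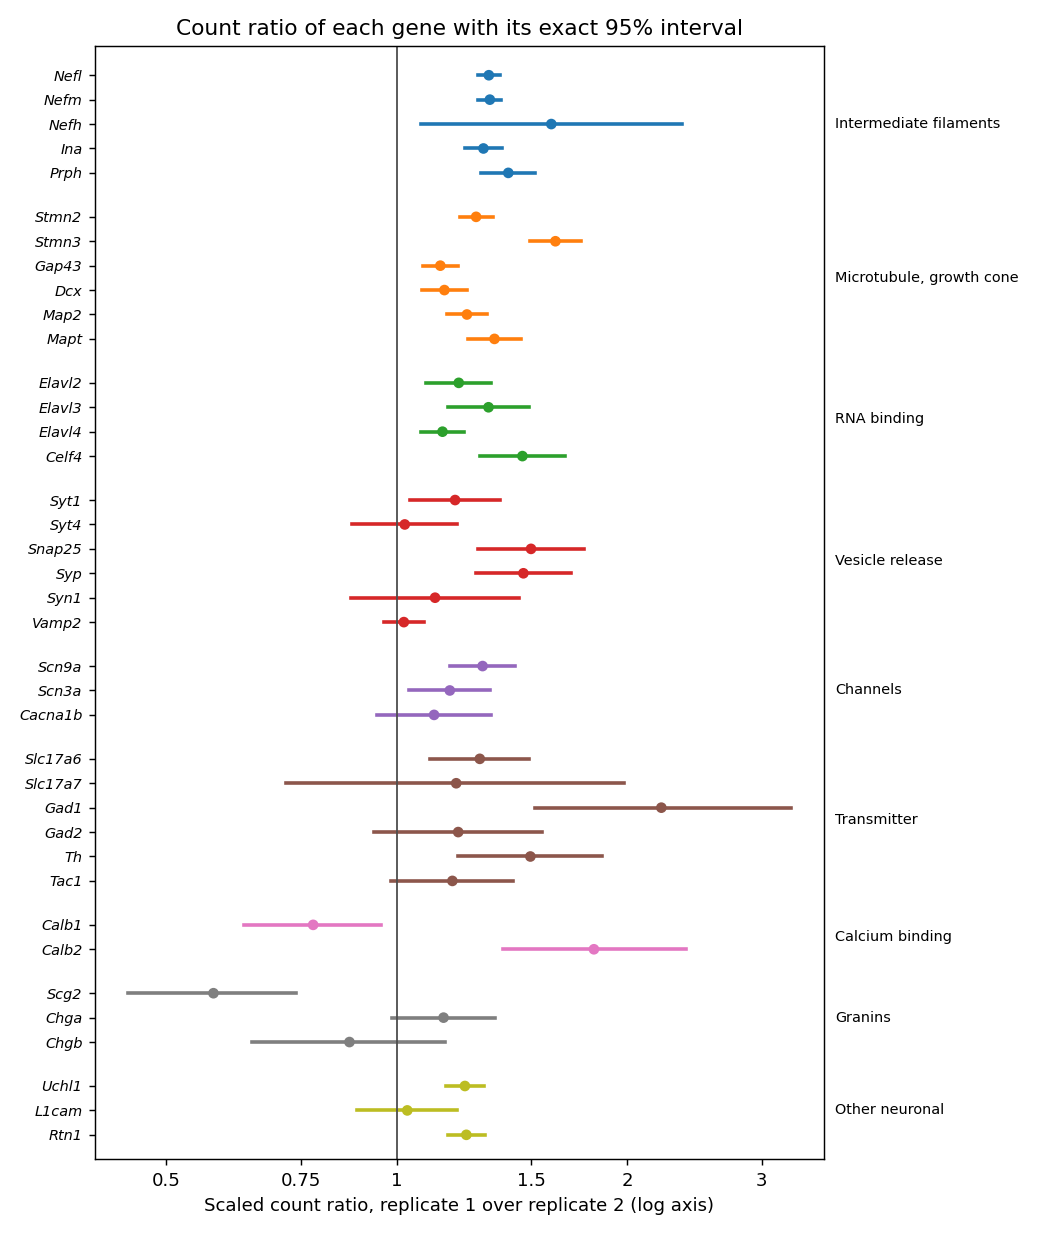
Scaled count ratio of replicate 1 over replicate 2 for each of the 38 genes (log axis), with points for the ratio and bars for the exact 95% interval, which covers counting error only. All intermediate filament, microtubule and RNA-binding genes have intervals above 1, while Calb1 and Scg2 have intervals below 1.

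**Figure D3:**
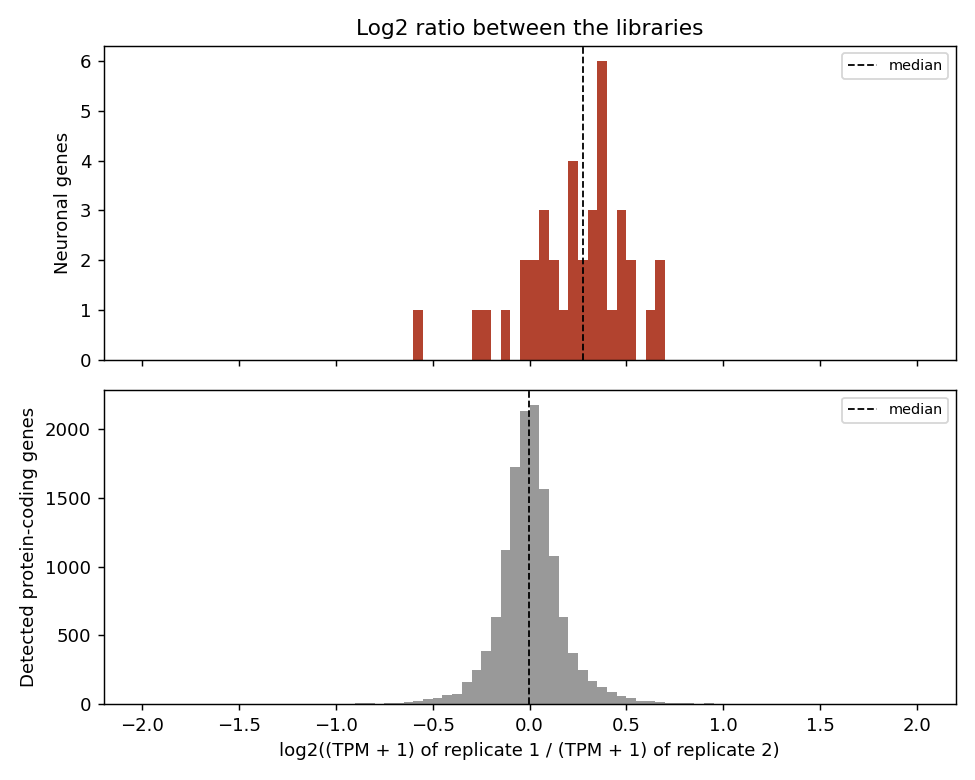
Number of genes by log2 ratio of replicate 1 over replicate 2, for the 38 neuronal genes (top) and for the 13382 detected protein-coding genes (bottom), with dashed lines at the medians. The neuronal genes are centred at 0.27 and all detected genes at -0.00.

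The neuronal intermediate filament genes were all higher in replicate 1, by much the same factor. Nefl and Nefm encode the light and medium neurofilament subunits and lie as neighbours on opposite strands of chromosome 14, Nefl at chr14:68083863-68089095 and Nefm at chr14:68082590-68124846. Nefl had 114 TPM in replicate 1 and 87 in replicate 2. Nefm had 103 TPM in replicate 1 and 78.1 in replicate 2. The level of Nefl over that of Nefm was 1.11 in replicate 1 and 1.11 in replicate 2, so the pair kept its proportion. Their count ratios were 1.32 (interval 1.28 to 1.36) and 1.32 (1.28 to 1.37). Annotated exons of the pair share 1108 bases, 32.8% of the exonic bases of Nefl and 19.2% of those of Nefm. The sources used here do not give the strand setting of the counting, and both genes carried fractional counts, so how reads of the shared stretch were divided is uncertain.

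The remaining filament genes fell into a middle level and a near absent one. Ina, which encodes alpha-internexin, had 39.7 TPM in replicate 1 and 30.8 in replicate 2. Prph, which encodes peripherin, the filament protein of peripheral neurons, had 40.0 TPM in replicate 1 and 27.8 in replicate 2. Both were thus at about the same level in each library, and both were higher in replicate 1, with count ratios of 1.30 (1.23 to 1.37) for Ina and 1.40 (1.29 to 1.52) for Prph. Nefh, the heavy subunit that is added to neurofilaments late in maturation, had 0.81 TPM from 58 counts in replicate 1 and 0.51 TPM from 52 counts in replicate 2. Nefl stood 141-fold above Nefh in replicate 1 and 171-fold in replicate 2. All 5 genes of the group had a count interval above 1, and their median log2 ratio was 0.39. Exons of Ina share 456 bases with Nt5c2 on the opposite strand, a gene at 59.8 TPM in replicate 1 and 58.8 in replicate 2.

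Genes of microtubule growth and of the growth cone had the highest median level of the larger groups, 44.2 TPM. Gap43, a membrane protein of growth cones, had 106 TPM in replicate 1 and 93.5 in replicate 2. Stmn2 and Stmn3 encode stathmins, which bind tubulin and promote microtubule turnover in growing neurites. Stmn2 had 85.2 TPM in replicate 1 and 65.3 in replicate 2. Stmn3 had 71.7 TPM in replicate 1 and 44.8 in replicate 2, and its count ratio of 1.61 (1.49 to 1.74) was the highest of the group. The stathmins therefore did not keep their proportion: Stmn2 stood 1.19-fold over Stmn3 in replicate 1 and 1.46-fold in replicate 2.

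The microtubule-associated proteins were lower. Map2, a protein of dendrites and cell bodies, had 33.3 TPM in replicate 1 and 27.1 in replicate 2. Mapt, which encodes the axonal protein tau, had 26 TPM in replicate 1 and 18.9 in replicate 2. Dcx encodes doublecortin, which stabilises microtubules in migrating young neurons. It had 14.2 TPM in replicate 1 and 13.6 in replicate 2, the smallest TPM difference of the group. All 6 genes had a count interval above 1, from 1.14 (1.08 to 1.20) for Gap43 upward, with a median log2 ratio of 0.33.

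The transcript tables divide each gene's level among its annotated transcripts, as a percent of the gene's abundance. For Mapt, the transcripts without the pair of 87-base exons that lengthen the amino-terminal end held 71.7% in replicate 1 and 72.7% in replicate 2. The transcript with both exons held 16.1% in replicate 1 and 16.0% in replicate 2. Forms with the large exon held 2.94% in replicate 1 and 4.30% in replicate 2. These shares were nearly equal between the libraries. All 5 annotated Mapt transcripts of at least 300 codons contain a coding exon of 93 bases, the length of the exon that adds a microtubule-binding repeat, so forms lacking it could not be measured from these tables.

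For Map2, the short protein forms prevailed among the full-length ones. Transcripts of the short form of 467 codons, known as MAP2C, held 37.4% in replicate 1 and 33.1% in replicate 2. Transcripts of 498 codons, which add a 93-base exon for a further repeat and are known as MAP2D, held 7.55% in replicate 1 and 15.2% in replicate 2. The long form of 1828 codons held 4.96% in replicate 1 and 2.73% in replicate 2. The share with the extra exon was thus the lower one in replicate 1, against the direction of the gene's level. Other transcripts held 50.1% in replicate 1 and 48.9% in replicate 2, among them a 546-base fragment with 28.2% in replicate 1 and 26.5% in replicate 2, so shares of the full-length forms are relative to a sum that fragments take up in large part. The exon that sets MAP2D apart from MAP2C lies at chr1:66431527-66431619 (mm10, plus strand) and is printed from the GENCODE M21 transcript, all in lower case.
Map2 93-base exon: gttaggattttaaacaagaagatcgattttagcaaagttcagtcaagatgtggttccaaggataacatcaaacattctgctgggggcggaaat

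Other transcripts of this group were simpler. A single transcript held 99.6% of Gap43 in replicate 1 and 100% in replicate 2, and another held 94.3% of Stmn2 in replicate 1 and 98.2% in replicate 2. Dcx was divided between a transcript of 9074 bases, with 44.7% in replicate 1 and 35.0% in replicate 2, and a transcript of 4095 bases, with 36.5% in replicate 1 and 50.03% in replicate 2, so the order of the pair differed between the libraries. Their coding parts differ by 1 codon, with 366 and 365 codons.

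Genes of neuronal RNA-binding proteins were all detected and all higher in replicate 1. Elavl2, Elavl3 and Elavl4 encode Hu proteins, which bind AU-rich elements and stabilise messages during neuronal differentiation. Elavl4 led with 55.4 TPM in replicate 1 and 50.7 in replicate 2. Elavl2 had 12.6 TPM in replicate 1 and 9.79 in replicate 2. Elavl3 had 6.44 TPM in replicate 1 and 5.02 in replicate 2. The order of the family was the same in both libraries, with Elavl4 over Elavl2 by 4.40-fold in replicate 1 and 5.18-fold in replicate 2. Celf4, a regulator of splicing and translation, had 9.5 TPM in replicate 1 and 6.61 in replicate 2, with a count ratio of 1.46 (1.29 to 1.66). Elavl4 had the smallest count ratio of the group, 1.15 (1.08 to 1.22). Its most abundant transcript, of 869 bases, is annotated as a processed transcript without a coding part and held 33.6% in replicate 1 and 28.4% in replicate 2. The leading coding transcript, of 4024 bases and 380 codons, held 20.8% in replicate 1 and 22.5% in replicate 2. These shares are corrected for length, and by expected counts the order was reversed. The processed transcript had 264 counts in replicate 1 and 290 in replicate 2, and the coding one had 835 in replicate 1 and 1172 in replicate 2.

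Genes of vesicle release were detected without exception, with a median level of 5.94 TPM. Of the 6 genes, 5 had a log2 ratio above 0, and 3 had a count interval above 1. Vamp2, the vesicle SNARE also called synaptobrevin, had 66.2 TPM in replicate 1 and 66.4 in replicate 2, with a count ratio of 1.02 (0.963 to 1.08). It was the only member of the group above 10 TPM. Snap25, a SNARE of the plasma membrane, had 8.65 TPM in replicate 1 and 5.67 in replicate 2. Syp, which encodes synaptophysin of the vesicle membrane, had 8.71 TPM in replicate 1 and 6.0 in replicate 2. The count ratios of Snap25, 1.5 (1.28 to 1.76), and Syp, 1.46 (1.27 to 1.69), stood apart from that of Vamp2, with no overlap of intervals. The level of Vamp2 over that of Snap25 was therefore 7.66 in replicate 1 and 11.7 in replicate 2.

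Calcium sensors and synapsin were lower still. Syt1, the fast calcium sensor of release, had 5.17 TPM in replicate 1 and 4.28 in replicate 2, with a count ratio of 1.19 (1.04 to 1.36). Syt4, a synaptotagmin with weaker calcium binding, had 3.89 TPM in replicate 1 and 3.83 in replicate 2, with a count ratio of 1.02 (0.874 to 1.20). Syn1, which tethers vesicles to the cytoskeleton, had 1.97 TPM in replicate 1 and 1.78 in replicate 2, and its interval of 0.871 to 1.44 also contained 1. The group thus held 3 genes with an interval above 1 and 3 with an interval that contained it. Exons of Syp share 16.8% of their bases with an antisense gene that was at 0.55 TPM in replicate 1 and 0.19 in replicate 2.

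Snap25 has a pair of alternative exons of 118 bases, of which each transcript uses 1, and the encoded forms are known as SNAP25a and SNAP25b. Its transcripts were looked at after their values had been seen, since its mean level is under the minimum of 10 TPM set for transcripts. The exons differ at 31 of 118 bases and the proteins at 9 of 206 residues. They are printed with the differing bases in capitals, from GENCODE M21 transcripts on mm10, plus strand. The exon of SNAP25b lies at chr2:136770057-136770174, and that of SNAP25a at chr2:136769743-136769860. The forms were told apart by translating both transcripts, since only SNAP25a has a pair of directly adjacent cysteines.
Snap25b exon: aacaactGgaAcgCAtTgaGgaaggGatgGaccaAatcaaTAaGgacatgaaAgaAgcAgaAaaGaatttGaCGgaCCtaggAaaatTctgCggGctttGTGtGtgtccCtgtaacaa
Snap25a exon: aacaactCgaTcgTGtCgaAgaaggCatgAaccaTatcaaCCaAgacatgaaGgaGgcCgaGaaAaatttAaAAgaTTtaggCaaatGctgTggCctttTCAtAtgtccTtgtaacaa

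The SNAP25b form held 87.1% of the gene in replicate 1 and 80.5% in replicate 2. The SNAP25a form held 9.64% in replicate 1 and 13.1% in replicate 2, from 14.1 counts in replicate 1 and 17.8 in replicate 2. The annotated lengths differ, with 2116 bases for the SNAP25b transcript and 1014 for the SNAP25a transcript. The 3′ end of the SNAP25b transcript lies 1077 bases further, so reads from that stretch could not be given to the SNAP25a transcript. What this did to the shares was not tested.

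Of the channel genes, Scn9a and Scn3a were higher in replicate 1. Scn9a, a voltage-gated sodium channel of sensory and sympathetic neurons, had 5.91 TPM in replicate 1 and 4.88 in replicate 2, with a count ratio of 1.30 (1.18 to 1.43). Scn3a, the sodium channel of embryonic neurons, had 4.83 TPM in replicate 1 and 4.01 in replicate 2, with a count ratio of 1.17 (1.04 to 1.32). Their proportion was kept, with Scn9a over Scn3a by 1.22-fold in both libraries. Cacna1b, the pore subunit of the N-type calcium channel, had 2.08 TPM in replicate 1 and 2.60 in replicate 2, while its counts were 243 and 310, a scaled ratio of 1.12 (0.942 to 1.33). Its level and its count thus differ in direction, since the effective length given to the gene was 6348 bases in replicate 1 and 4554 in replicate 2. All 3 channel genes lie on chromosome 2.

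Transmitter genes were low, and 4 of 6 were detected. The highest was Tac1, the precursor of substance P and neurokinin A, with 13.2 TPM in replicate 1 and 12.1 in replicate 2, a count ratio of 1.18 (0.983 to 1.42). Th, tyrosine hydroxylase of catecholamine synthesis, had 5.55 TPM in replicate 1 and 3.74 in replicate 2, with a count ratio of 1.5 (1.20 to 1.86). Slc17a6, the vesicular glutamate transporter VGLUT2, had 4.96 TPM in replicate 1 and 3.62 in replicate 2, with a count ratio of 1.28 (1.11 to 1.49). Of the vesicular glutamate transporters among the members, VGLUT2 prevailed: it stood 8.0-fold over Slc17a7 in replicate 1 and 6.35-fold in replicate 2. Slc17a7, which encodes VGLUT1, had 31 counts in replicate 1 and 37 in replicate 2.

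Gad1 and Gad2 encode the glutamate decarboxylases that make GABA. Gad1 had 1.70 TPM from 73 counts in replicate 1 and 0.75 TPM from 47 counts in replicate 2. Its count ratio of 2.22 (1.52 to 3.27) was the highest of the 38 genes. Gad2 had 2.05 TPM in replicate 1 and 1.85 in replicate 2, with an interval of 0.934 to 1.55. The level of Gad2 over that of Gad1 was 1.21 in replicate 1 and 2.47 in replicate 2. All 6 transmitter genes had a log2 ratio above 0, and 3 of them, Gad1, Th and Slc17a6, had a count interval above 1.

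The transcripts of Tac1 differ in which peptides they can yield. The 130-codon transcript, known as the beta form, holds every coding exon, and it took 49.0% in replicate 1 and 38.3% in replicate 2. The 115-codon transcript, the gamma form, lacks a 45-base exon and took 39.6% in replicate 1 and 52.3% in replicate 2. The 112-codon transcript, the alpha form, lacks the 54-base exon with the codons of neurokinin A and took 11.2% in replicate 1 and 9.20% in replicate 2. The beta form was thus the leading one in replicate 1 and the gamma form in replicate 2, on gene totals of 217 and 262 counts. Neurokinin A codons were present in forms that together made up most of the gene in each library. The exons by which the forms differ are printed from the GENCODE M21 transcripts on mm10, plus strand, all in lower case, at chr6:7557216-7557260 and chr6:7559099-7559152.
Tac1 45-base exon: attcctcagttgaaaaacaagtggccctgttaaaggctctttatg
Tac1 54-base exon: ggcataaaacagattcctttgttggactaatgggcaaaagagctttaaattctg

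**Figure D4:**
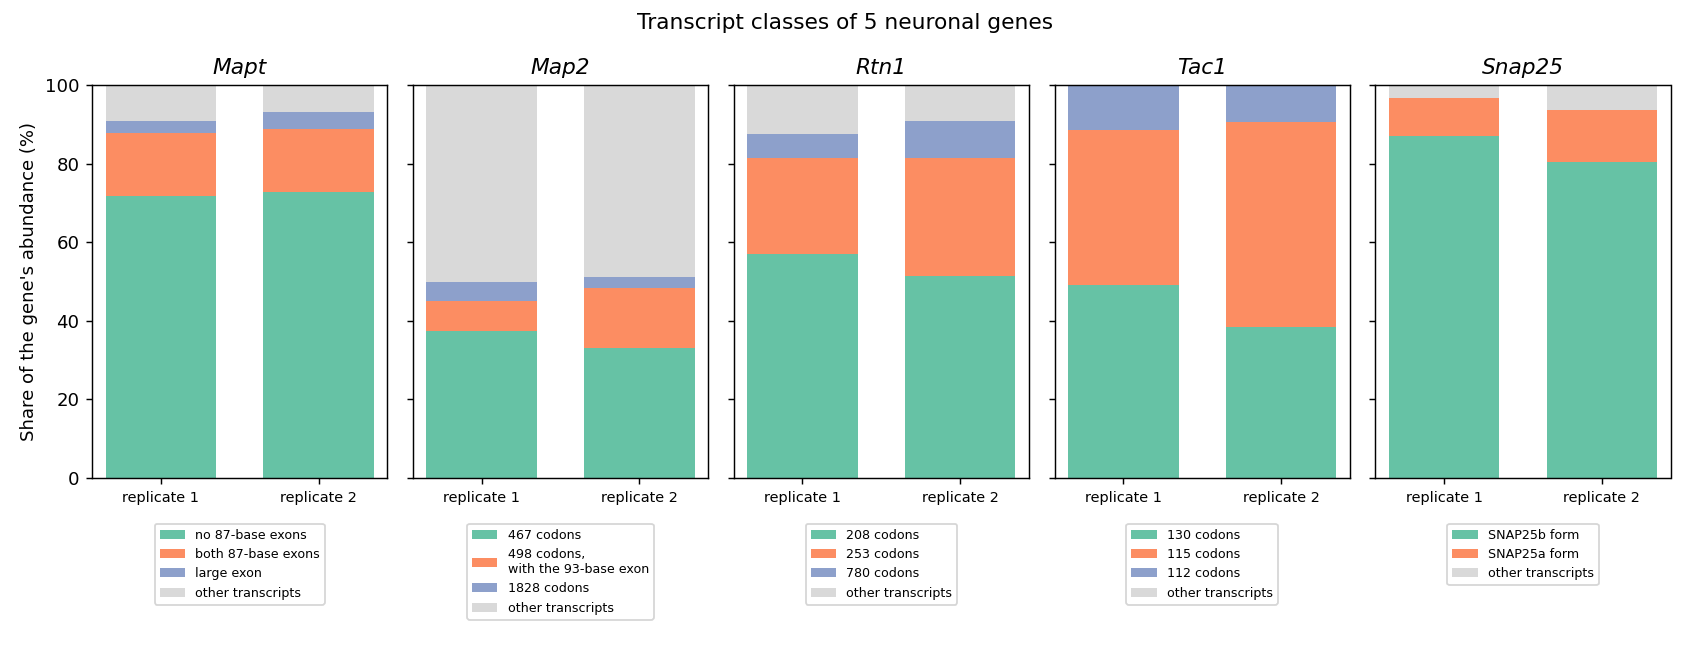
Share of each gene's abundance in percent held by classes of annotated transcripts of Mapt, Map2, Rtn1, Tac1 and Snap25, with replicate 1 as the left bar and replicate 2 as the right bar of each panel. Mapt classes are nearly equal in both libraries, while for Tac1 the 130-codon class leads in replicate 1 with 49.0% and the 115-codon class leads in replicate 2 with 52.3%.

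The calcium-binding proteins calbindin and calretinin, which mark subsets of neurons, went in opposite directions by counts. Calb2, which encodes calretinin, had 5.01 TPM in replicate 1 and 2.78 in replicate 2, with a count ratio of 1.81 (1.38 to 2.39). Calb1, which encodes calbindin, had 146 counts in replicate 1 and 268 in replicate 2, a scaled ratio of 0.778 (0.631 to 0.955). Its TPM was almost level, with 2.67 in replicate 1 and 2.77 in replicate 2, as its effective length was 2970 bases in replicate 1 and 3704 in replicate 2. Calb2 over Calb1 was 1.88 in replicate 1 and 1.00 in replicate 2.

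The granins, acidic proteins of dense-core vesicles, were the group with a negative median log2 ratio, -0.14. Scg2, which encodes secretogranin II, had 2.18 TPM from 90 counts in replicate 1 and 3.75 TPM from 223 counts in replicate 2. Its count ratio of 0.576 (0.446 to 0.739) was the lowest of the 38 genes. Chga, which encodes chromogranin A, had 9.59 TPM in replicate 1 and 7.92 in replicate 2, with an interval of 0.985 to 1.35. Chgb, which encodes chromogranin B, had 1.62 TPM in replicate 1 and 1.88 in replicate 2, with an interval of 0.648 to 1.16. The granins summed to 13.4 TPM in replicate 1 and 13.6 in replicate 2, so their sum was level while their proportions were not. Chga stood 4.40-fold over Scg2 in replicate 1 and 2.11-fold in replicate 2.

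Promoter windows of 250 bases before to 50 bases after the start were given for 25 of the 38 genes in the RefSeq table of GRCm38.p6. The element called RE1, through which the repressor REST keeps neuronal genes silent in other cells, has a left part CAGCACC and a right part GGACAG, most often with 2 bases between. Searched on both strands, CAGCACC was in the windows of 3 of the 25 genes, Syn1, Scg2 and Chgb, or 12.0%, against 8.14% of the 27025 genes with a window. GGACAG was in those of 9 genes, or 36%, against 24.7%. Both parts with 2 bases between were in none of the 25, against 0.0407% of all genes. In Scg2 the parts follow each other with 0 bases between, a spacing that was searched for after that window had been read and that 3 of the 27025 genes hold. TATAAA, the TATA box, was in the windows of 5 genes, Prph, Dcx, Elavl3, Gad1 and Chga, or 20.0%, against 15.7% of all, and the E-box CAGCTG in 8, or 32.0%, against 18.3%. Such matches describe letters in a window, and windows without a match say nothing about binding. The windows of Scg2, the gene with the lowest ratio, and of Prph, the filament gene with the highest log2 ratio, are printed 5′ to 3′ on the strand of the gene. Scg2 is read from chr1:79439977-79440276 (minus strand), with both RE1 parts in capitals as they appear on the opposite strand. Prph is read from chr15:99054924-99055223 (plus strand), with TATAAA in capitals.
Scg2 promoter: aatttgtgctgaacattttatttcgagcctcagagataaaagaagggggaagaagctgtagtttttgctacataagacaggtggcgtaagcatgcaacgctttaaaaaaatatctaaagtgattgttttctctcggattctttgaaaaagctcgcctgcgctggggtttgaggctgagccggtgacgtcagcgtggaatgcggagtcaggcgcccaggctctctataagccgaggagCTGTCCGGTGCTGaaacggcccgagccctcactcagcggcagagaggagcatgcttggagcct
Prph promoter: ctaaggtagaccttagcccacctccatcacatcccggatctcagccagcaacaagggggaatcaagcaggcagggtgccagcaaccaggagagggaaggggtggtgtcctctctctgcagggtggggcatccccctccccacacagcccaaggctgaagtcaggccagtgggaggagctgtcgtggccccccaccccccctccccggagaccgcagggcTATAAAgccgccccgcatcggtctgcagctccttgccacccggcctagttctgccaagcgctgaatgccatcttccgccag

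REST itself was expressed in the tissue. Rest had 44.3 TPM in replicate 1 and 46.7 in replicate 2, with a count ratio of 0.956 (0.925 to 0.989). The 8 genes of REST and its partners were all detected, with Hdac2 highest at 297 TPM in replicate 1 and 309 in replicate 2. Their median log2 ratio was -0.03, and 3 of 8 were higher in replicate 1, against 49.5% of all detected genes.

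Of the remaining members, Uchl1 and Rtn1 were among the 5 highest. Uchl1, a ubiquitin hydrolase abundant in neurons, had 145 TPM in replicate 1 and 110 in replicate 2 and ranked 1220 of 22028 protein-coding genes. Rtn1, a reticulon of the endoplasmic reticulum, had 87.6 TPM in replicate 1 and 69.8 in replicate 2. Their count ratios were close, 1.23 (1.16 to 1.30) for Uchl1 and 1.23 (1.17 to 1.30) for Rtn1. L1cam, an adhesion molecule of axons, had 4.60 TPM in replicate 1 and 5.66 in replicate 2, but a count ratio of 1.03 (0.888 to 1.20), with an effective length of 3570 bases in replicate 1 and 2830 in replicate 2. Vamp2, Cacna1b and L1cam were the members whose TPM and counts differed in direction.

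Much of the level of Uchl1 was given to a transcript annotated as retaining an intron. This transcript held 66.1% in replicate 1 and 73.7% in replicate 2, and the leading coding transcript held 23.4% in replicate 1 and 24.2% in replicate 2. Their annotated lengths are 980 and 1177 bases. Rtn1 was led by the 208-codon form, with 56.9% in replicate 1 and 51.4% in replicate 2. Its 253-codon form held 24.4% in replicate 1 and 30.0% in replicate 2, and the long 780-codon form held 6.13% in replicate 1 and 9.47% in replicate 2. Of the 13 members with a mean TPM of at least 10 and at least 2 annotated transcripts, 3 had a single transcript at 90% or more in both libraries, namely Nefm, Stmn2 and Gap43. By share of abundance, the leading transcript was without a coding part in 2 of the 13, Elavl4 and Uchl1. For Elavl4, a coding transcript had more expected counts. The leading transcript of Prph, of 475 codons, held 85.6% in replicate 1 and 84.3% in replicate 2, and that of Vamp2, of 116 codons, held 54.9% in replicate 1 and 53.1% in replicate 2. For Elavl2, a transcript of 347 codons held 33.5% in replicate 1 and 24.8% in replicate 2, and a transcript of 359 codons held 20.9% in replicate 1 and 33.2% in replicate 2, so that the leading one differed. The leading transcript was the same in both libraries for 9 of the 13 and differed for Dcx, Map2, Elavl2 and Tac1.

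Further genes of the same pathways, 145 in 6 lists, were described beside the members. Of these, 108 were detected, their median log2 ratio was 0.08, and 93 of 145 were higher in replicate 1. The count interval lay above 1 for 53 and below 1 for 5. Beside these counts and those of the single lists, 60.7% of all protein-coding genes were detected. Of all detected genes, 49.5% were higher in replicate 1, with the interval above 1 in 15.4% and below 1 in 14.6%. The lists differed among themselves. All 22 further cytoskeleton genes were higher in replicate 1, with a median of 0.16 and an interval above 1 in 17. This list includes widely expressed genes, with Stmn1, the stathmin of dividing cells, at 2076 TPM in replicate 1 and 2003 in replicate 2. Dpysl2, a growth cone protein, had 281 TPM in replicate 1 and 276 in replicate 2. Map1b, a microtubule-associated protein of early axons, had 237 TPM in replicate 1 and 213 in replicate 2. The neuronal tubulin Tubb3 had a log2 ratio of 0.45, within the range of the members.

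Further vesicle genes were mixed, with 20 of 32 higher in replicate 1, an interval above 1 in 9 and below 1 in 2, and a median log2 ratio of 0.07. Their highest genes are not limited to neurons: Sypl, a relative of synaptophysin, had 47.6 TPM in replicate 1 and 53.4 in replicate 2, and Nsf, the ATPase that takes SNARE complexes apart, had 46.2 TPM in replicate 1 and 44.9 in replicate 2. Syt11 had 38.1 TPM in replicate 1 and 32.3 in replicate 2. Of 25 postsynaptic genes, 21 were detected, none above a mean of 13.1 TPM, which was that of the adhesion molecule Nlgn3, and the median log2 ratio was 0.10 with an interval above 1 in 7 and below 1 in 1.

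Further channel genes, 14 of 23 detected, had a median log2 ratio of -0.01, with an interval above 1 in 8 and below 1 in none. Their highest member was Cacna2d1, a calcium channel subunit, at 15.8 TPM in replicate 1 and 17.0 in replicate 2. Of 18 further transmitter genes only 6 were detected. They included the glutamine synthetase gene Glul, which also serves general metabolism, at 92.3 TPM in replicate 1 and 84.0 in replicate 2. Ddc, the decarboxylase after Th in catecholamine synthesis, had 8.46 TPM in replicate 1 and 10.5 in replicate 2, the opposite order to Th. Its count ratio was 0.853, with an interval of 0.715 to 1.01 that contained 1. Slc18a2, the vesicular monoamine transporter, had 8.13 TPM in replicate 1 and 6.30 in replicate 2, with a count ratio of 1.30 (1.15 to 1.46). A few more were picked out after their values had been seen. The vesicular GABA transporter gene Slc32a1 had 1.36 counts in replicate 1 and 2.77 in replicate 2. Of the cholinergic genes, Chat had 1 count in each library, the vesicular transporter gene Slc18a3 had 3 counts in replicate 1 and 22 in replicate 2, and the choline transporter gene Slc5a7 was detected at 1.25 TPM in replicate 1 and 1.12 in replicate 2.

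Neuropeptide genes, 16 of 25 detected, had a median log2 ratio of 0.07, with an interval above 1 in 9 and below 1 in none. The enkephalin precursor Penk led with 184 TPM in replicate 1 and 182 in replicate 2, with a count ratio of 1.01 (0.969 to 1.05). Cpe, a carboxypeptidase that trims prohormones, had 143 TPM in replicate 1 and 143 in replicate 2. Calca, the precursor of calcitonin gene-related peptide of sensory neurons, had 20.2 TPM in replicate 1 and 18.5 in replicate 2. Gal, the galanin precursor, had 13.3 TPM in replicate 1 and 8.21 in replicate 2, with a count ratio of 1.61 (1.28 to 2.02).

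Lists that mark kinds of neurons and other cells were set beside the members, and several moved with them. For their counts too, the shares over all detected genes are 49.5% higher in replicate 1, 15.4% with an interval above 1 and 14.6% below 1. Of 16 transcription factors of sensory ganglia, 13 were higher in replicate 1, with a median log2 ratio of 0.23 and an interval above 1 in 9 and below 1 in 1. They summed to 231 TPM in replicate 1 and 208 in replicate 2. Isl1, a factor of sensory and motor neurons, had 43.6 TPM in replicate 1 and 35.0 in replicate 2, and its count ratio of 1.32 (1.24 to 1.41) lay close to that of the neurofilaments. Isl2 had 21.8 TPM in replicate 1 and 16.2 in replicate 2. Eya1, which placodes and mesenchyme also express, had 33.9 TPM in replicate 1 and 35.4 in replicate 2. Of the 8 sensory receptor genes, 6 were also higher in replicate 1, with a median of 0.14 and sums of 131 TPM in replicate 1 and 112 in replicate 2. P2rx3, an ATP-gated channel of pain fibres, had 16.2 TPM in replicate 1 and 11.7 in replicate 2. Ntrk3 was at 1.92 TPM in replicate 1 and 2.06 in replicate 2, and Trpv1 was near 0 at 0.15 TPM in replicate 1 and 0.21 in replicate 2.

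Of 11 brain factors, 10 were higher in replicate 1, with a median log2 ratio of 0.37, an interval above 1 in 9 and below 1 in 1, and sums of 85.6 TPM in replicate 1 and 71.5 in replicate 2. Most of that sum comes from Bcl11b, Emx2 and Lhx6, which the facial tissue also expresses, with Lhx6 at 17.5 TPM in replicate 1 and 12.1 in replicate 2. Genes of the list more restricted to the forebrain were low and were picked out after their values had been seen. Tbr1 had 104 counts in replicate 1 and 18 in replicate 2, and Nkx2-1 had 144 counts in replicate 1 and 73 in replicate 2. Otx2 went the other way, with 6.04 TPM in replicate 1 and 8.11 in replicate 2. In at least 1 library, 5 of the 11 were under 1 TPM. The part that brain cells have in the members' ratios was not tested.

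The olfactory list, 15 of 17 detected, had 10 genes higher in replicate 1 with a median log2 ratio of 0.12, an interval above 1 in 6 and below 1 in 3, and sums of 201.1 TPM in replicate 1 and 189 in replicate 2. Its defining marker of mature olfactory neurons, Omp, was at 0.34 TPM in replicate 1 and 0.36 in replicate 2. The autonomic list went the opposite way to the 38 genes. Of its 7 genes, 1 was higher in replicate 1, the median log2 ratio was -0.31, and the interval lay below 1 in 4 and above 1 in none, with sums of 57.9 TPM in replicate 1 and 67.2 in replicate 2. Gata2, which other cells of the face also express, had 31.6 TPM in replicate 1 and 39.4 in replicate 2. Of the genes that define these cells, the transcription factor Phox2a had 0 counts in replicate 1 and 16 in replicate 2. Dbh, the noradrenaline enzyme, had 6 counts in replicate 1 and 26 in replicate 2. Scg2 shared the direction of this list, while Th and Chga did not. Whether autonomic precursors have a part in the value of Scg2 was not tested.

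Glial genes summed to 237 TPM in replicate 1 and 197 in replicate 2, with 7 of 9 higher in replicate 1, a median log2 ratio of 0.06, and an interval above 1 in 2. The difference of the sums came mostly from Fabp7, at 154 TPM in replicate 1 and 118 in replicate 2, while the Schwann cell factor Sox10 had 17.0 TPM in replicate 1 and 16.5 in replicate 2. The 7 neuroendocrine genes had a median of 0.02 and sums of 58.8 TPM in replicate 1 and 59.5 in replicate 2. Mesenchyme genes had a median of -0.05 with 4 of 8 higher in replicate 1, and the interval lay above 1 in 3 and below 1 in 4. The lowest count ratios of the list were those of Alx1 and Col1a1. Alx1, a factor of the frontonasal mesenchyme, had 103 TPM in replicate 1 and 150 in replicate 2, with a count ratio of 0.689 (0.663 to 0.715). Col1a1 had 402 TPM in replicate 1 and 487 in replicate 2, with a count ratio of 0.833 (0.823 to 0.843). The 3 with an interval above 1 were Msx1 at 1.04 (1.01 to 1.07), Prrx1 at 1.06 (1.04 to 1.09) and Pdgfra at 1.04 (1.02 to 1.07). Epithelial genes had a median of 0.07 with 5 of 8 higher in replicate 1, and the interval lay above 1 in 2 and below 1 in 1. What share of the members' difference comes from any of these cells was not tested.

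**Figure D5:**
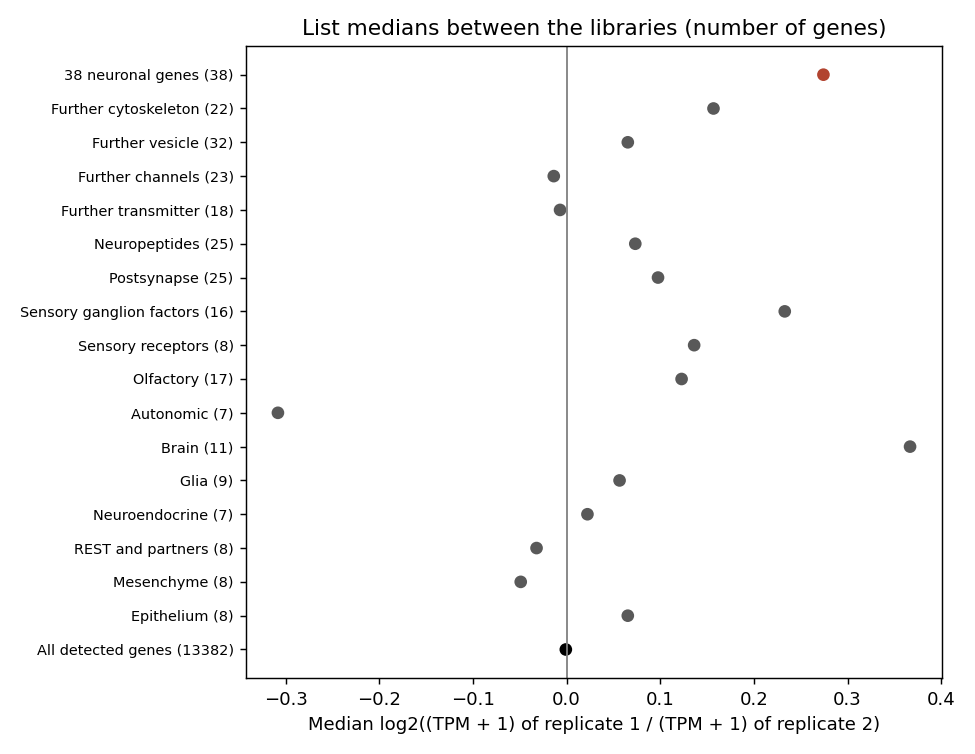
Median log2 ratio of replicate 1 over replicate 2 for the 38 neuronal genes (red), for further gene lists (grey, with the number of genes in brackets) and for all detected protein-coding genes (black). The 38 genes lie at 0.27, the sensory ganglion factors at 0.23 and the brain list at 0.37, while the autonomic list lies at -0.31 and mesenchyme at -0.05.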

How the data were processed

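PolyA plus RNA-seq of 2 libraries was analysed. The authors deposited, per the file headers, an expected count, a TPM, a posterior mean TPM and an FPKM for each gene, and the percent of a gene's abundance held by each transcript. Per the deposited file descriptions, the tables rest on the assembly mm10 and on the GENCODE releases M21 and M4. The aligner, the quantifier and the strand setting were not given in the sources used here. Release M21 was used, with M4 as an alternative.

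The 38 genes and all lists were chosen with earlier results of these data known. The text names all 38 members, from each other list the 4 genes with the highest mean TPM, and every gene of lists of up to 8. Transcripts are given for members at a mean TPM of at least 10 with at least 2 transcripts. Exceptions are stated where they occur, and some genes under this rule are not reported here.

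Ratios of TPM used a pseudocount of 1. Expected counts were rounded, scaled by the summed gene counts and given an exact conditional (Clopper-Pearson) 95% interval. The calculation was run on simulated counts that held counting error only, as the interval assumes. That run checks the calculation and does not show how well the interval covers the variation between these libraries. The file totals, 28705073 and 41092194 expected counts, set the counting precision. No condition was compared and no p-value was computed. The labels call the libraries biological replicates from separate pools. Python 3.11.15, pandas 2.3.3, scipy 1.17.1, and R 4.3.3 with edgeR 4.0.16 (TMM and median-of-ratios factors only) were used. Alternatives were other pseudocounts, minimums, scalings, the deposited FPKM and release M4.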

Additional observations from a re-analysis of the deposited data

How the results depend on the processing

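The number of detected members was 35 at a minimum TPM of 1. It was 38 at a minimum of 0.1, 21 at a minimum of 5, and 35 to 36 when either replicate was left out. The median level of 7.26 TPM ran between 5.84 and 8.68 when either replicate was left out, was 6.61 with release M4, and 4.64 on the scale of the deposited FPKM. The median log2 ratio of 0.27 lay between 0.26 and 0.31 under 9 alternatives and was 0.40 when TPM was scaled on the summed spike-ins, which adds 0.14 to the log2 ratio of TPM before the pseudocount. Between 29 and 35 members were higher in replicate 1, the lowest count being that over the 35 detected ones. The count interval lay above 1 for 26 members under TMM, median-of-ratios, release M4 and a minimum of 10 counts. It lay above 1 for 31 with spike-in scaling, and below 1 for 1. Spike-in scaling shifts all genes by 0.14, so the 0.40 and the 31 cannot be set against the all-gene values given above. The direction of Vamp2, Cacna1b and L1cam changed with counts in place of TPM, that of Vamp2 and Calb1 with spike-in scaling, and that of Vamp2 with FPKM. The leading transcript of Prph held 84.9% as the mean of both libraries and 87.9% with release M4.

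No paired analysis was possible because both libraries belong to 1 group. Each level rests on 2 pools, and the ratio between them has no replicate check. Nefh, Slc17a7 and Gad1, with under 100 counts in each library, carry the widest counting intervals. The ratio of Scg2, with 90 counts in replicate 1, also rests on few reads.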

Other observations

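Several low genes outside the 38 showed wider gaps between the libraries than most members did, and they were picked out after their values had been seen. Scn10a, a sodium channel of pain-sensing neurons, had 1.99 TPM in replicate 1 and 1.23 in replicate 2, with a count ratio of 1.66 (interval 1.37 to 2.02). Of the genes of peptide release, Vgf had 1.95 TPM in replicate 1 and 0.97 in replicate 2, and Resp18 had 4.23 TPM in replicate 1 and 1.41 in replicate 2.

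Nppa, the precursor of atrial natriuretic peptide, was picked out in the same way. It had 117 counts in replicate 1 and 10 in replicate 2, a scaled count ratio of 16.7 (8.77 to 35.8).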
